A study of Homo sapiens with 11 samples.

Results

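RT4, a human cell line from a bladder papilloma, was grown on plastic or on cancer remodeled extracellular matrix (crECM, sold as Matrigel), and its RNA was labeled with Cy3 and hybridized to one-color spotted arrays of long oligonucleotides. The genes described here are 10 parts of the route that leads to and through the IκB kinase (IKK): CHUK, IKBKB and IKBKG, which are the kinase itself, NFKB1 and NFKB2, MAP3K14 and MAP3K8, and TRAF6, MYD88 and UBE2N. Every probe that the platform annotation names with exactly 1 of these symbols was taken. This gave 11 of the 22464 probes and 10 of 14941 genes, since CHUK has 2 probes. The genes were proposed with the difference between plastic and crECM on these same arrays in view, so their values in that contrast are a description and carry no test.

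The plastic group has 2 arrays, which the labels call replicate 1 and replicate 2, without saying whether they came from separate cultures. The crECM group has 9 arrays, with 1 array each at 12 h and on days 1, 2, 3, 4, 6, 7, 8 and 9 after cells had been moved from plastic onto the gel. Each crECM array is thus a time point, and none has a replicate. For the gel cultures, trypsinized cells in McCoy's medium with fetal calf serum were laid on solidified gel in culture inserts and were later freed with Matrisperse, a reagent that dissolves the gel. No genetic change or drug was part of either group, and both groups come from this 1 line.

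IKK holds a pair of catalytic subunits, IKKα (CHUK) and IKKβ (IKBKB), and a regulatory subunit, NEMO (IKBKG). In the canonical route, receptors for bacterial products or interleukin-1 act through the adaptor MYD88 and the ubiquitin ligase TRAF6, which works with the ubiquitin-conjugating enzyme UBE2N to build chains that recruit NEMO. Active IKK then marks IκB for destruction and sets NF-κB dimers free. In the noncanonical route, the kinase MAP3K14, also called NIK, activates CHUK, and the NFKB2 precursor is cut to its active form. NFKB1 is the other precursor, and MAP3K8 is a kinase that the NFKB1 precursor holds in check. Epithelial cells of the bladder use the canonical route in their response to bacteria.

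Deposited values are log10 of the number of SDs of the noise by which a spot lies above the zero point of its array. A spot was counted as above noise at 3 SD, a log10 value of 0.477. The share of probes above 3 SD was between 83.9% and 86.6% on all arrays in the deposited values. The raw intensities of the arrays were not alike. The plastic arrays had medians of 162 and 140.45, and the medians of the crECM arrays ran from 224 to 482. The low peak of each array had its mode at a raw intensity of 28.7 and 29.0 on plastic and from 29.7 to 64.1 on crECM, whereas a deposited value of 3 SD stood for a raw intensity of 13.7 and 9.85 on plastic and of 52.2 to 136 on crECM. On plastic the 3 SD line thus fell below this mode and on crECM above it, and array handling and substrate cannot be told apart. The low peak on plastic held a sharp spike near the zero point beside a broader peak. Where its mode falls on plastic thus depends on how it is estimated. Of 15 urothelial genes on the array, 10 were above 3 SD on all 11 arrays, with a summed level between 771 and 811 SD on plastic and between 637 and 1288 SD on crECM. Of 10 mesenchymal and 6 blood genes, 6 and 5 were above 3 SD on all arrays. Their sums were between 232 and 246 SD on plastic and between 189 and 228 SD on crECM for the former, and between 132 and 136 SD and between 121 and 143 SD for the latter. No gene of these 3 lists was under 3 SD on every array. On plastic the blood genes PTPRC and HBB had log10 values of 1.51 and 1.53, and of 1.60 and 1.63. RT4 is a single line from a bladder papilloma, so a value above 3 SD does not by itself show that the named gene was expressed. What these spots measured was not tested. In RNA from whole cultures, fewer expressing cells and less RNA per cell cannot be told apart.

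**Figure D1:**
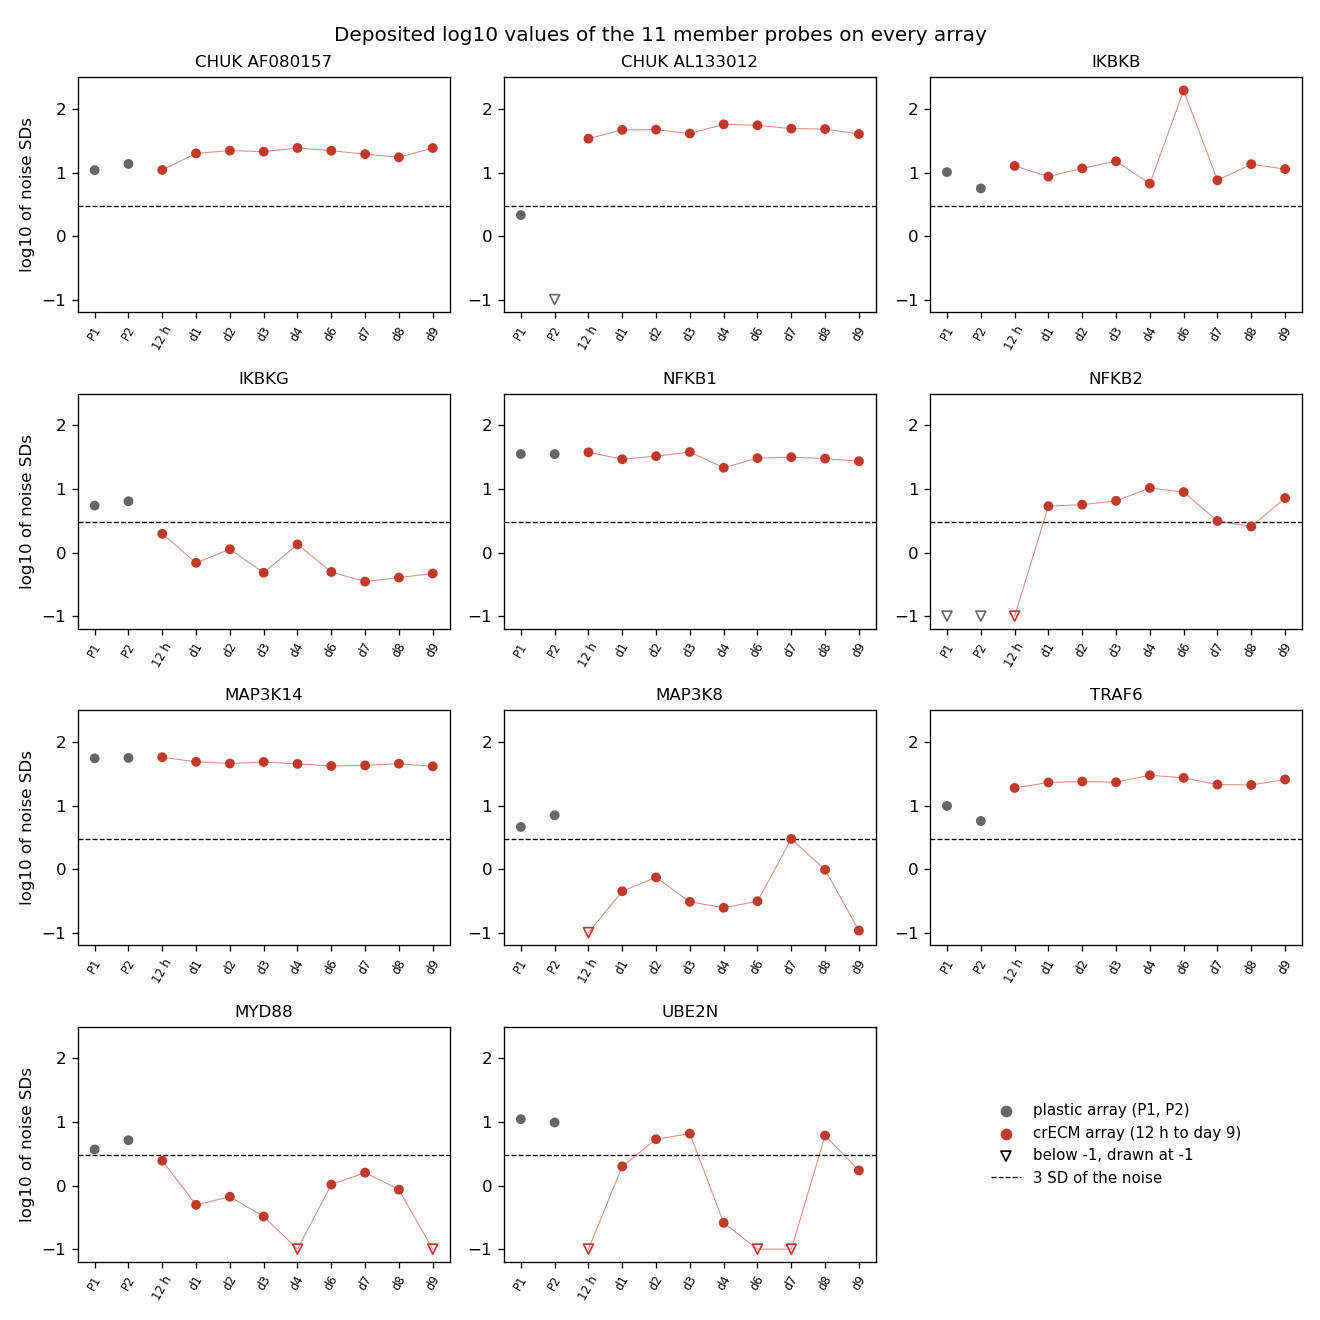
Deposited log10 values in noise SDs (vertical axis) of the 11 probes on each array (horizontal axis, P1 and P2 for plastic, then 12 h to day 9 on crECM), with 1 point for each array, the dashed line at 3 SD and triangles for values below -1. CHUK AL133012 and TRAF6 were higher on every crECM array than on both plastic arrays, and IKBKG, MAP3K8, MYD88 and UBE2N were lower on every one.

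CHUK, the catalytic subunit that both routes use, was higher on crECM by both of its probes, but by very different amounts. The probe of accession AF080157 had log10 values of 1.04 and 1.14 on plastic, and on crECM a lowest value of 1.04, a median of 1.33 and a highest value of 1.39. The groups overlapped in a single array, at 12 h, which lay between both plastic arrays, and the other 8 crECM arrays were above plastic. The mean level was 12.2 SD on plastic and 19.8 SD on crECM, a log2 difference of 0.69 or 1.62-fold. The probe of accession AL133012 had log10 values of 0.33 and -2.39 on plastic, both under 3 SD, and a lowest value of 1.53, a median of 1.68 and a highest value of 1.76 on crECM. Its groups were far apart. With values under 3 SD set to 3 SD, the log2 difference was 3.94, at least 15.4-fold on the deposited scale. It was 2.69 in values rebuilt from the raw intensities and 2.67 after quantile normalization, so the bound does not hold across scalings.

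Raw medians were higher on all crECM arrays, and 8 of the 11 member probes had higher raw intensities on every crECM array than on both plastic arrays. A rise in raw intensity is thus no separate support. The raw intensities of the CHUK probes moved the same way as the deposited values. For AF080157 they were 64.1 and 74.9 on plastic and ran from 128 to 449 on crECM, with the lowest value at 12 h. For AL133012 they were 9.6 and -8.9 on plastic and ran from 318 to 874 on crECM. The second plastic value was below zero. By the off-on criterion used for these arrays, a mean log10 value below 0 on plastic and above 1 on crECM, AL133012 was off-on and AF080157 was not, since it was above 3 SD on all 11 arrays. Off-on probes made up 3.97% of all probes. The plastic mean of AL133012 was -1.03 and rested on plastic replicate 2, which held the lowest value given on its array. Plastic replicate 1 alone had 0.33, which is above the limit of 0 though under 3 SD.

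**Figure D2:**
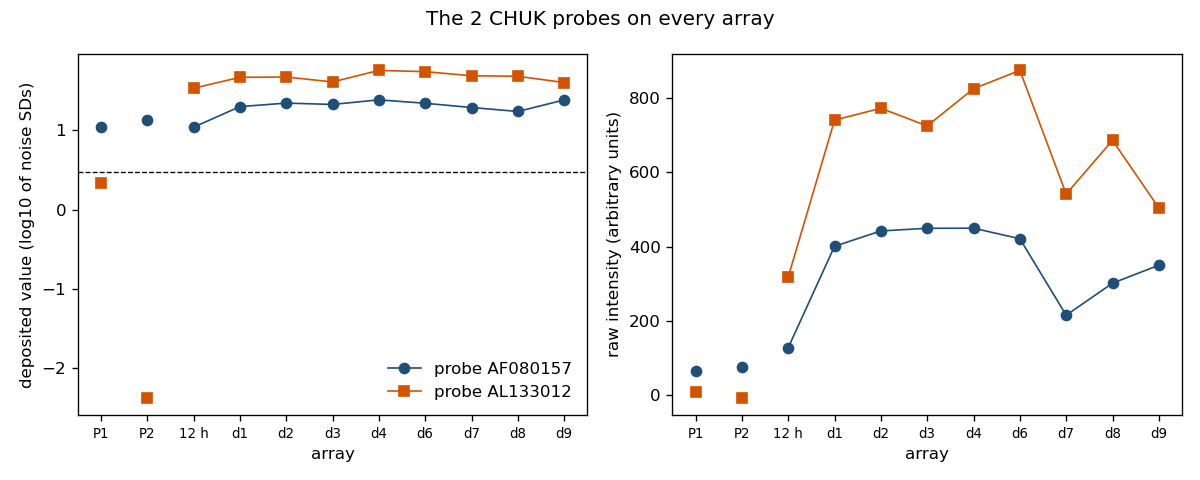
The 2 CHUK probes on each array (horizontal axis), as deposited log10 values in noise SDs (left, dashed line at 3 SD) and as raw intensities in arbitrary units (right), with 1 point for each probe and array. AL133012 went from 9.6 and -8.9 on plastic to between 318 and 874 on crECM, and AF080157 from 64.1 and 74.9 to between 128 and 449.

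Over the 11 arrays the CHUK probes had a Pearson r of 0.71 on floored log2 values, where floored means that values under 3 SD were set to 3 SD. Without the floor r was 0.513. It was 0.635 over the 9 crECM arrays and 0.030 over the 8 arrays from day 1 on. From day 1 on the probes thus shared little of their spread. The points of each correlation share their arrays and their scaling.

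IKBKB, the catalytic subunit that does most of the work in the canonical route, was above 3 SD on every array and changed little apart from 1 spot. Its log10 values were 1.01 and 0.75 on plastic, and on crECM the lowest was 0.83, the median 1.06 and the highest 2.29. The highest came from day 6, where the raw intensity was 2497 against 58.1 and 21.7 on plastic and a median of 227 on crECM. The other 8 crECM arrays lay between 0.83 and 1.18 and overlapped with plastic. The log2 difference of 0.95 (1.93-fold) was 0.52 without plastic replicate 2. It includes the day 6 array, and its SD of 1.46 over the crECM arrays was the largest among the 8 member probes above 3 SD on any crECM array.

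IKBKG, the regulatory subunit to which ubiquitin chains bind, was lower on crECM in the deposited values and higher in the raw intensities. Its log10 values were 0.74 and 0.81 on plastic, both above 3 SD, and between -0.46 and 0.30 on crECM with a median of -0.31, all under 3 SD. The groups did not overlap, and the log2 difference was -0.98, at least 1.98-fold lower. The raw intensities were 26.3 and 26.0 on plastic and ran from 30.4 to 101 on crECM. IKBKG has a near-identical pseudogene, and whether its probe tells them apart was not tested.

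The NF-κB precursor genes differed from each other in their pattern. NFKB1 was far above noise everywhere, with log10 values of 1.55 and 1.55 on plastic, and a lowest value of 1.33, a median of 1.49 and a highest value of 1.58 on crECM. The groups overlapped, and the log2 difference of -0.21 was smaller than the SD of 0.25 over the crECM arrays. NFKB2 had -2.51 and -2.39 on plastic, which were the lowest values given on those arrays, and raw intensities of -64.2 and -75.0. At 12 h on crECM it was also at the lowest value of its array, -3.93. From day 1 on it lay between 0.41 and 1.02, with 7 of the 9 crECM arrays above 3 SD, and its raw intensities on crECM were between 34.4 and 259.6. The groups overlapped at 12 h. The log2 difference was 0.84, at least 1.79-fold, and was 2.23 with a floor of 1 SD and 0.34 with a floor of 5 SD. Of the crECM arrays under 3 SD, day 8 was just below it, at 0.41, and 12 h far below.

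Both precursor genes are known targets of NF-κB itself, so their promoters were searched for the NF-κB consensus motif on both strands, in the RefSeq windows of GRCh38.p14 that run from 250 bases before to 50 bases after a gene start. The table held windows for 9 of the 10 genes, all but IKBKB. The motif was present in 6 of their 17 windows, from 3 genes, and in 3956 of all 35116 windows (11.3%). It was in 1 of 2 windows of NFKB1, in 2 of 3 of NFKB2 and in 3 of 3 of MAP3K8, and in none of CHUK, IKBKG, MAP3K14, TRAF6, MYD88 and UBE2N. Windows of a gene can overlap, and the same MAP3K8 match, 29 and 192 bases before 2 starts, is counted in both windows. The share of windows was not tested against that of all windows. The stretches below are shown because they hold a match in the genes that also belong to the route, on the plus strand with the match in capitals. They lie at chr4:102501285-102501344 for NFKB1, at chr10:102394446-102394505 and chr10:102395659-102395704 for NFKB2, and at chr10:30433967-30434026 for MAP3K8, whose match reads on the minus strand.
NFKB1: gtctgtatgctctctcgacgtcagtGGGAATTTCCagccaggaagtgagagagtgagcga
NFKB2, first stretch: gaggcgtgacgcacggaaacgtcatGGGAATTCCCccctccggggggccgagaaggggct
NFKB2, second stretch: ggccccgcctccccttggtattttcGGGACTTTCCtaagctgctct
MAP3K8: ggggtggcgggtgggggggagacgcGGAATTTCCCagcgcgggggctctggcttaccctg
The match of NFKB1 began 49 bases before the gene start, and those marked for NFKB2 began 107 and 21 bases before their starts. NFKB2 also held matches 106, 78 and 176 bases before a start, and MAP3K8 another at 207, which are not marked. The first NFKB2 match reads on both strands. These are matches of letters, and the genes that hold them did not share a pattern on the arrays. The groups overlapped for NFKB1 and NFKB2 and did not for MAP3K8.

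MAP3K14, the kinase that activates CHUK in the noncanonical route, had the most even values of the members above noise. Its log10 values were 1.74 and 1.75 on plastic, and a lowest value of 1.62, a median of 1.66 and a highest value of 1.76 on crECM. The 12 h array was above both plastic arrays and the later 8 were below them. The log2 difference was -0.27 (1.21-fold lower), and the SD over the crECM arrays was 0.15 on the log2 scale. Raw intensities overlapped. They were 615 and 575 on plastic and ran from 469.8 to 822 on crECM.

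MAP3K8, the kinase bound to the NFKB1 precursor, had log10 values of 0.66 and 0.85 on plastic and was under 3 SD on all 9 crECM arrays, with a lowest value of -3.93 at 12 h, a median of -0.51 and a highest value of 0.47 on day 7. The groups did not overlap. The log2 difference was -0.92, at least 1.90-fold lower, but the raw intensities ran the other way, from 21.3 and 29.4 on plastic to between 41.6 and 72.4 on crECM.

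TRAF6, the ligase that passes the signal of MYD88 on to IKK, was higher on crECM throughout. Its log10 values were 0.99 and 0.76 on plastic, and a lowest value of 1.28 at 12 h, a median of 1.37 and a highest value of 1.48 on day 4 on crECM. All 9 crECM arrays were above both plastic arrays. The mean was 7.50 SD on plastic and 23.6 SD on crECM, a log2 difference of 1.65 or 3.15-fold. The raw intensities were 55.8 and 22.2 against a range of 192 to 519. In the deposited values TRAF6 was the only member above 3 SD on all 11 arrays whose groups did not overlap. In values rebuilt from the raw intensities, described below, it was under 3 SD on both plastic arrays.

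MYD88, the adaptor above TRAF6, had 0.57 and 0.71 on plastic and was under 3 SD on all 9 crECM arrays. On crECM its highest value was 0.39 at 12 h, its median -0.18 and its lowest -5.65 on day 9. The log2 difference was -0.54, at least 1.46-fold lower. It was -0.79 without plastic replicate 1 and -0.30 without plastic replicate 2. Raw intensities were 16.6 and 19.4 on plastic. On crECM they were between 14.9 and 70.0, with a median of 59.4, and the day 9 array alone was below both plastic arrays.

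UBE2N, the ubiquitin-conjugating enzyme that works with TRAF6, was lower on crECM in the deposited values and lay on both sides of 3 SD there. Its log10 values were 1.04 and 0.99 on plastic. On crECM they were 0.73 on day 2, 0.82 on day 3 and 0.79 on day 8, the 3 arrays above 3 SD. On days 1, 4 and 9 they were 0.30, -0.59 and 0.24. At 12 h and on days 6 and 7 the probe was at the lowest value given on the array, -3.93, -5.27 and -3.52. The log2 difference was -1.47, at least 2.76-fold lower, from a mean of 10.4 SD to one of 3.78 SD with values under 3 SD set to 3 SD. Raw intensities overlapped. They were 65.4 and 47.1 on plastic and ran from -38.3 to 204 on crECM. Their mean ran the other way from the deposited values, with 56.25 on plastic and 82.8 on crECM.

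By group means of log10 values UBE2N met the on-off criterion, with 1.02 on plastic and -1.16 on crECM, as did 0.41% of all probes. Both means lay close to a limit or rested on few arrays. The plastic mean was 1.04 from replicate 1 alone and 0.99 from replicate 2 alone, so that the limit of 1 fell between them. The crECM median was 0.24, and the mean of the 6 crECM arrays that were not at their lowest value was 0.38, both above the limit of 0.

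**Figure D3:**
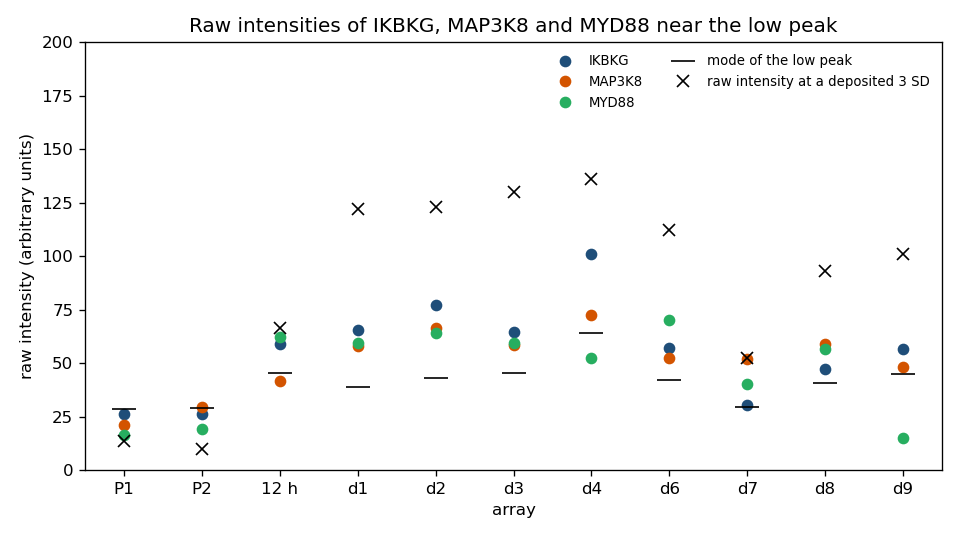
Raw intensities in arbitrary units (vertical axis) of IKBKG, MAP3K8 and MYD88 on each array (horizontal axis), with the mode of the low peak (dash) and the raw intensity that stood for 3 SD in the deposited values (cross). On plastic the 3 probes lay between 16.6 and 29.4, beside the estimated mode of the low peak at 28.7 and 29.0. They lay above the crosses at 13.7 and 9.85 there, and on crECM they lay below the crosses.

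IKBKG, MAP3K8 and MYD88 shared a feature, in that each was above 3 SD on both plastic arrays and on no crECM array. Of all probes, 1297 (5.77%) had this pattern. On plastic their raw intensities were between 16.6 and 29.4. The estimated mode of the low peak was at 28.7 and 29.0 there, where the deposited log10 value was 0.77 and 0.84. On crECM the deposited value at the mode of the low peak was below 0 on all 9 arrays. The raw intensities of IKBKG and MAP3K8 were higher on every crECM array than on both plastic arrays, and those of MYD88 on 8 of 9 crECM arrays. The size of their log2 differences depended on the floor. For IKBKG it was -2.39 with a floor of 1 SD and -0.25 with a floor of 5 SD, for MAP3K8 -2.33 and -0.24, and for MYD88 -1.90 and -0.024. UBE2N and CHUK AL133012 moved less, to -2.32 and -0.98 and to 4.98 and 3.21.

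All 11 member probes were above 3 SD on at least 2 arrays, the filter of the fit across probes. By limma with Benjamini-Hochberg adjustment 2 of them were called higher on crECM and 4 lower at an adjusted p under 0.05, namely the 6 probes whose groups did not overlap. For IKBKG, MAP3K8 and MYD88 all crECM values were set to 3 SD, so that group had no spread in the fit and the calls rest on the plastic arrays and the floor. Of the 21480 probes in the fit, 45.2% were called, 22.8% higher and 22.4% lower. All crECM arrays were above both plastic arrays for 20.8% of the probes, and below both for 24.4%. Nothing is read from the members' count, since they were proposed from this contrast. The median log2 difference was -0.21 over the 11 member probes and 0.06 over all tested probes. The count of all calls was 5045 without plastic replicate 1 and 3892 without plastic replicate 2.

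**Figure D4:**
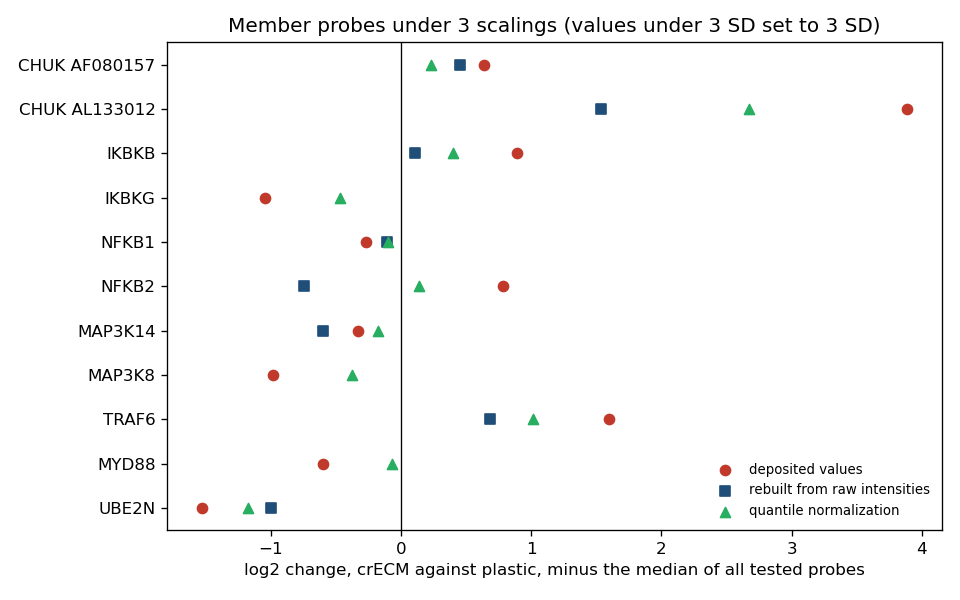
Log2 difference of each member probe between crECM and plastic, minus the median of all tested probes (horizontal axis), in the deposited values, in values rebuilt from the raw intensities and after quantile normalization. Points are left out where a probe was under 3 SD on all arrays, as IKBKG, MAP3K8 and MYD88 were in the rebuilt values, and NFKB2 lies at 0.79, -0.74 and 0.14.

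Other scalings were applied to the same raw intensities. Rebuilt values are raw intensities less the mode of the low peak and divided by its SD, without the regression between arrays, and they shifted the median log2 difference of all tested probes to 1.15. In the rebuilt values 53.2% and 44.5% of all probes were above 3 SD on the plastic arrays, and from 75.7% to 85.4% on crECM. Both CHUK probes, IKBKB, TRAF6 and UBE2N were under 3 SD on both plastic arrays there. These placements rest on the estimated mode and SD of the low peak. Relative to the median, the direction of CHUK, NFKB1, MAP3K14 and TRAF6 was the same in the deposited, the rebuilt and the quantile-normalized values. CHUK AL133012 was higher by 3.88, 1.54 and 2.67 relative to the median, and TRAF6 by 1.60, 0.69 and 1.02. UBE2N was at -1.52, -1.0 and -1.17. In the rebuilt values it was above 3 SD on only 3 crECM arrays. Its -1.0 there comes mostly from taking the median off floored values and gives no direction. CHUK AF080157 was at 0.64, 0.45 and 0.23, and IKBKB at 0.89, 0.11 and 0.40. The values of IKBKB include its high day 6 spot, and its direction without that spot was not tested. NFKB2 changed sign, with 0.79 in the deposited, -0.74 in the rebuilt and 0.14 in the quantile-normalized values. IKBKG, MAP3K8 and MYD88 were under 3 SD on all arrays in the rebuilt values and so had no difference there, and were at -0.47, -0.38 and -0.07 after quantile normalization. In absolute terms, without the median taken off, NFKB1, MAP3K14 and UBE2N were higher on crECM in the rebuilt values. Of the calls in the deposited values 4901 were higher and 4815 lower, and in the rebuilt values 15517 were higher and 57 lower.

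The crECM time course does not use the plastic arrays and was tested by itself, for the 8 member probes above 3 SD on at least 2 crECM arrays. IKBKG, MAP3K8 and MYD88 were not among them. The 12 h array was compared with the mean of the 8 later days, on the assumption that the lone array varies like the others. It had the lowest raw median of the crECM arrays, 224, against 249.6 on day 7 and 338 to 482 on the others. With 1 array at 12 h, time and array cannot be told apart. CHUK AF080157 was at 10.98 SD at 12 h and at 21.3 SD later, with all 8 later days above 12 h. The log2 difference was -0.95 (SE 0.21, 1.94-fold lower at 12 h, adjusted p = 0.035 by limma). It was called, as were 4.36% of all 19858 probes tested (2.33% lower at 12 h). Over the alternatives its adjusted p ranged from 0.0067 to 0.128, the highest after quantile normalization, where the difference was -0.71 and was not called.

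No other member probe was called at 12 h in the deposited values. CHUK AL133012 had 34.2 SD at 12 h and 47.9 SD later, again with all 8 later days above, and a log2 difference of -0.49 (SE 0.18, adjusted p = 0.17 by limma). Over the alternatives its adjusted p ranged from 0.0031 to 0.226, the lowest in the rebuilt values, where the median of all tested probes was -0.70. TRAF6 was lower at 12 h than on all 8 later days, by -0.36 on the log2 scale (SE 0.20, adjusted p = 0.38 by limma, between 0.028 and 0.59 over the alternatives, the lowest in the rebuilt values). MAP3K14 was higher at 12 h than on all 8 later days, by 0.36 (SE 0.11, adjusted p = 0.11 by limma), but was at -0.18 in the rebuilt values, which is above their median. In the deposited values CHUK, TRAF6 and MAP3K14 thus did not share a sign at 12 h. Of their probes only CHUK AF080157 was called, so whether their directions differed is not settled. The differences of the other 4 probes were -0.95 for NFKB2, -0.38 for UBE2N, 0.34 for NFKB1 and -0.22 for IKBKB, with adjusted p between 0.47 and 0.96 by limma. The median over the 8 member probes was -0.37, against -0.02 over all tested probes.

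A slope over the days, per doubling of time on crECM, was called for no member probe by limma, and for 1 probe of 19858 (0.00504%), while 1474 had an unadjusted p under 0.05. Among the members MAP3K14 had a slope of -0.09 (SE 0.026, unadjusted p = 0.0053, adjusted p = 0.40 by limma). It was the only member probe with an unadjusted p under 0.05. CHUK AF080157 had a slope of 0.15 (SE 0.072, adjusted p = 0.71 by limma), and without the 12 h array its slope was -0.0025. From day 1 on, its log10 values lay between 1.24 and 1.39 in no order of time. The median SD over the crECM arrays was 0.300 on the log2 scale for the 8 member probes and 0.251 for all tested probes.

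The probes whose floored log2 values were most like those of CHUK, TRAF6 and UBE2N were looked up among 16528 probes with a single gene symbol, by Pearson r over the 11 arrays, as a description. For CHUK AF080157 they were SYT4 (r = 0.972), RNF113A (0.969) and FGF6 (0.964), and r over the 9 crECM arrays alone was 0.983, 0.976 and 0.960. For CHUK AL133012 they were NCS1 (0.995), TSPAN33 (0.994) and KARS1 (0.993), and over the 9 crECM arrays r was lower, 0.830, 0.846 and 0.828. Without the plastic arrays the likeness was thus lower for the second probe and about as high for the first. For TRAF6 they were MICAL3 (0.994), HINT3 (0.991) and NPRL2 (0.989), with 0.918, 0.924 and 0.941 over crECM. For UBE2N they were ETV4 (0.959), MXI1 (0.957) and DYNC1LI2 (0.954), with 0.952, 0.893 and 0.941 over crECM. The arrays are shared by all these probes.

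Of 105 other genes of the route, listed by role, 91 were on the array and 88 were tested. By limma 16 were called higher on crECM, 21 lower and 51 were not called, and their median log2 difference was 0.01, against 0.06 over all tested probes, of which 45.2% were called. Of the calls in the rebuilt values 71 were higher and 1 lower, and after quantile normalization 10 were higher and 13 lower. The count rested on both plastic arrays, with 14 called without plastic replicate 1 and 9 without plastic replicate 2. Other kinases beside and above IKK had 1 higher and 3 lower of 13 tested. Adaptors and ubiquitin ligases had 7 higher and 5 lower of 21, inhibitors 4 higher and 1 lower of 16, and parts of the machinery that degrades IκB 0 higher and 4 lower of 5. Known target genes of NF-κB had 3 higher and 8 lower of 30.

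The largest differences among called genes whose groups did not overlap fell in several roles. RNF31, a subunit of the ligase complex that builds linear ubiquitin chains on NEMO, had 0.62 and -2.39 on plastic and ran from 1.06 to 1.26 on crECM, at least 4.13-fold higher (log2 difference 2.05, SE 0.20, adjusted p = 9.1e-06 by limma). Like CHUK AL133012 it was at the lowest value of the array on plastic replicate 2. MYC, a growth regulator and target of NF-κB, was 2.45-fold higher (log2 1.29, SE 0.26, adjusted p = 0.0020 by limma). MALT1, a protease and scaffold that acts through TRAF6, was 2.18-fold higher (log2 1.12, SE 0.28, adjusted p = 0.0072 by limma).

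Among the lower genes, LTA, the cytokine lymphotoxin alpha, had 1.60 and 1.62 on plastic and ran from -5.94 to 1.13 on crECM, at least 6.51-fold lower (log2 -2.70, SE 0.61, adjusted p = 0.0038 by limma). CFLAR, an inhibitor of apoptosis, was at 0.97 and 0.93 on plastic and under 3 SD on all crECM arrays, at least 2.98-fold lower (log2 -1.58, SE 0.053, adjusted p = 2.5e-09 by limma). All crECM values of CFLAR were set to 3 SD, so that group had no spread in the fit. Its SE and adjusted p thus do not measure the spread on crECM. The mean raw intensity of CFLAR was 45.4 on plastic and 46.6 on crECM. RBX1, a subunit of the ligase that marks IκB, was 2.76-fold lower (log2 -1.47, SE 0.20, adjusted p = 0.00015 by limma). Of the Rel subunits that pair with the products of NFKB1 and NFKB2, REL was higher by 0.29 (SE 0.079, adjusted p = 0.011 by limma). RELA was at -0.50 (SE 0.81, adjusted p = 0.64) and RELB at -0.25 (SE 0.12, adjusted p = 0.10), and neither was called by limma.

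**Figure D5:**
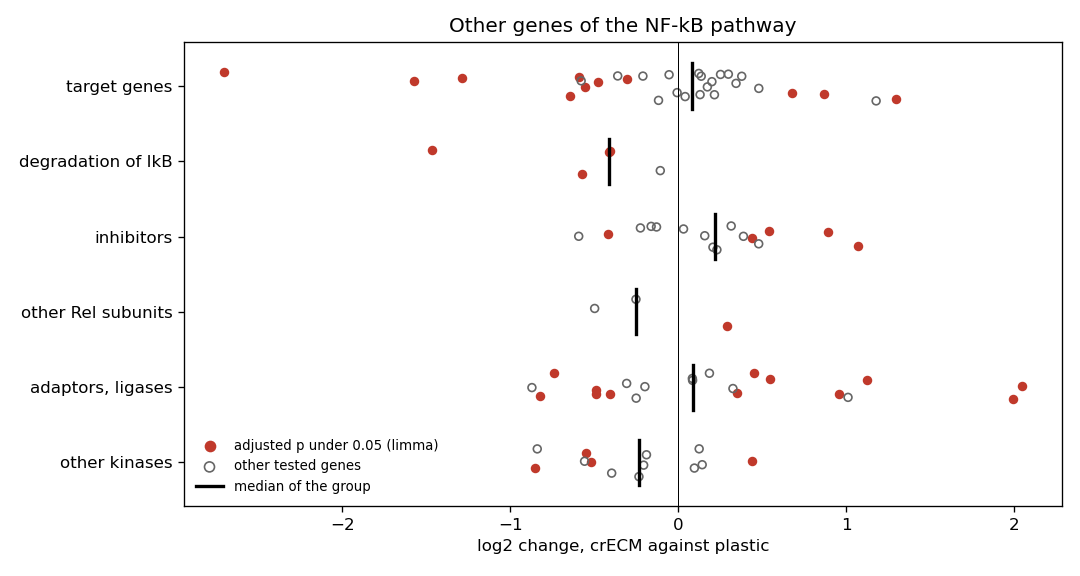
Log2 difference between crECM and plastic (horizontal axis) of the 88 other tested genes of the route, grouped by role (vertical axis), with 1 point for each gene, filled where the adjusted p by limma was under 0.05, and a bar at the median of each group. The medians lay between -0.41 for the degradation of IκB and 0.22 for the inhibitors.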

How the data were processed

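One-color spotted arrays measured Cy3-labeled RNA of RT4 cells from plastic (2 arrays) and crECM (9 arrays). The authors deposited a raw intensity for each spot and a table of log10 values, made by fitting the noise peak of each array, expressing intensities in SDs of that peak above the zero point, and adjusting the arrays by robust linear regression. The scanner, image analysis and genome build were not given in the sources used here. Of 22464 probes, 17043 had a single gene symbol in the platform annotation, 172 several and 5249 none, and the gene identifiers of 16952 were found among the GRCh38.p14 gene names. Promoter windows are RefSeq sequences of that build.

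For tests, deposited log10 values were turned into SDs, set to 3 SD where lower, and taken to log2. The mode of the low peak came from a kernel density of the raw intensities, and its SD from the values below the mode. On the plastic arrays the mode depends on this choice of estimate. limma 3.58.1 (R 4.3.3, lmFit and eBayes with trend, Benjamini-Hochberg adjustment, threshold 0.05) was fitted to all probes above 3 SD on at least 2 arrays, for plastic against crECM, 12 h against later days on crECM, and the slope over log2 of the day. The fit was tested on simulated data. A fold is a lower bound, on the deposited scale only, where any array of the lower group was under 3 SD. Summaries used Python 3.11.15, pandas 2.3.3, numpy 2.4.6 and scipy 1.17.1. Depth is not defined for arrays, and their number limits the precision. Where replicates may be technical, p-values measure only the spread between these arrays.

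The members and the pathway and marker lists were chosen with earlier results of these data known. Named were all members, the 3 Rel subunits, in each direction the 3 other pathway genes with the largest difference among those called with no overlap of the groups, and the 3 most similar probes of CHUK, TRAF6 and UBE2N. A pathway gene with several probes was taken by the probe with the highest mean. Alternatives were quantile normalization, values rebuilt from raw intensities, floors of 1 and 5 SD, no filter, eBayes without trend, and leaving out single arrays.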

Additional observations from a re-analysis of the deposited data

Results flagged for a closer look

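The 9 crECM values of 16 named probes were examined for a highest or lowest array far from the others by Dixon's 95% limit, with values under 3 SD set to 3 SD. An array stood apart for 3 probes, where chance gives about 0.8. IKBKB on day 6 had the highest log10 value of its crECM arrays, 2.29, with a gap to the next of 0.760 of the range. CHUK AF080157 at 12 h had the lowest of its crECM values, 1.04, with a gap of 0.575 of the range. MAP3K14 at 12 h had the highest of its crECM values, 1.76, with a gap of 0.506 of the range.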

How the results depend on the processing

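Of 37 recomputed counts of calls and probe correlations, 15 moved, most by over 1.5 times, and 22 did not. Of 199 recomputed values of single member probes, 162 kept their direction and side of the threshold or moved by less than the spread between arrays, 22 moved, 1 lost its call, 2 gained one and 12 changed sign. The call of CHUK AF080157 at 12 h was lost with quantile normalization, and those of CHUK AL133012 and TRAF6 were gained in the values rebuilt from raw intensities. Probes called between plastic and crECM numbered 9716, and 15574 in the rebuilt values (15517 higher, 57 lower), and with single arrays left out they numbered 5045 without plastic replicate 1, 3892 without plastic replicate 2 and 10646 without the 12 h array. With a floor of 5 SD, 4568 were higher and 4659 lower, and over probes above 5 SD on most arrays 4830 were higher and 3048 lower. Other genes of the route called numbered 37, with 72 in the rebuilt values (71 higher, 1 lower), 23 with quantile normalization and with single arrays left out 14 and 9 (plastic replicates 1 and 2) and 39 (12 h). At 12 h, 866 probes were called, with 5297 in the rebuilt values (126 higher, 5171 lower), 518 with quantile normalization and 1399 without the filter. The slope was called for 1 probe, for 84 in the rebuilt values, 3 with quantile normalization, 0 with eBayes without trend and 0 without the 12 h array. The r of the CHUK probes was 0.71, and 0.513 without the floor. In the rebuilt values NFKB1, MAP3K14 and UBE2N differed between plastic and crECM by 1.05, 0.56 and 0.15, NFKB1 and MAP3K14 between 12 h and later days by -0.33 and -0.18, and UBE2N had a slope of -0.0031. Without the 12 h array the slopes of CHUK AF080157, NFKB2 and UBE2N were -0.0025, -0.088 and -0.039. Chosen after seeing the data were the plastic mean of CHUK AL133012 without plastic replicate 1 (-2.39) and without plastic replicate 2 (0.33), against -1.03 with both, the crECM median of UBE2N (0.24) and its mean without arrays at their lowest value (0.38). The causes were not tested. No paired analysis was possible because the labels give replicate numbers on plastic only and the crECM arrays are time points. Differences between plastic and crECM rest on 2 plastic arrays, which limits their precision.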
